A study of Mus musculus with 4 samples.

Results

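The cytochrome P450 genes of the mouse were followed through every cell class of liver tumours that carried KLF2 and of tumours that carried an empty vector. A gene was taken as a member when its symbol was Cyp followed by a number, a letter and a number, with pseudogene symbols ending in -ps left out. The rule found 96 of the 28889 genes listed in the 3 libraries with a count matrix. By known role 45 members belong to drug and xenobiotic families, 28 to fatty acid and eicosanoid metabolism, 6 to bile acid and oxysterol synthesis, 6 to vitamin D and retinoid metabolism, 5 to steroid hormone synthesis, and 6 fall in none of these. Over the kept cells 29 members had at least 100 unique molecular identifiers (UMIs, each standing for 1 captured RNA molecule), 38 had 10 to 99, and 29 had under 10. In the annotation 13 members overlap another gene on the same strand and 15 overlap a gene on the opposite strand. Reads of the near-identical Cyp2a, Cyp2c, Cyp2d, Cyp3a and Cyp4a copies may have been split between neighbours, so single values in those subfamilies are less certain than their sums.

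The study asked how KLF2, a zinc-finger transcription factor, acts in hepatocellular carcinoma. KLF2 tumours received the plasmid pT3-EF1α-KLF2, a pair of plasmids of the same make for c-MYC (pT3-EF1α-c-MYC) and for AKT (pT3-EF1α-AKT), and a plasmid for the SB100X transposase, and vector tumours received the pT3 empty vector in place of the KLF2 plasmid, so tumours of both groups carry c-MYC and AKT. The EF1α promoter is active in most cell types, and hydrodynamic injection into the tail vein delivers plasmids mainly to hepatocytes, which keep them once the transposase has inserted them. The mice were male C57BL/6 animals of 18 weeks at collection, 10 weeks after injection, and each library came from the tumour of 1 mouse. The groups were KLF2 replicates 1 and 2 and vector replicate 2. For vector replicate 1 the gene list and barcodes were used, and its matrix was not analysed here.

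Cytochrome P450 enzymes are haem proteins that insert an oxygen atom from molecular oxygen into their substrates, with electrons passed on by P450 oxidoreductase in the endoplasmic reticulum or by ferredoxin in mitochondria. Hepatocytes hold most of the drug-metabolising families 1 to 3, with many of these enzymes enriched around the central vein, and they make bile acids from cholesterol through Cyp7a1, Cyp8b1, Cyp27a1 and Cyp7b1. Other members work outside hepatocytes, such as the retinoic acid hydroxylases of family 26, the leukotriene-oxidising Cyp4f18 of myeloid cells, and Cyp1b1 of stromal cells. Loss of the hepatic families is a known feature of hepatocytes that lose their mature state.

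After removal of cells with under 300 genes or over 25% mitochondrial UMIs, 6209 and 11103 cells were kept in KLF2 replicates 1 and 2, against 8403 in vector replicate 2. The kept cells held 95185678 and 125109626 UMIs in the KLF2 libraries, against 38242472 in the vector library. The vector library stood apart. The median mitochondrial share of kept cells was 0.2228% and 0.345% in the KLF2 libraries, against 11.92% in vector, and 1.162% and 1.219% of the KLF2 barcodes were removed, against 34.62% in vector. Barcodes held no fewer than 1000 UMIs in both KLF2 libraries, against 522 in vector. KLF2 replicates 1 and 2 shared 550 barcode names with each other and 595 and 1146 names with vector replicate 2. Klf2 itself measured 326.4 and 379.8 CPM (UMI counts scaled in the usual way to the UMI total of the class) in the KLF2 tumour/parenchymal compartment, against 139.4 CPM in vector, with an adjusted p of 0.163 in the edgeR quasi-likelihood test. The part of depth, mitochondrial content and batch in the results was not tested, and with 1 vector matrix the library and the treatment cannot be told apart.

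Promoters are shown for the pair of hepatic genes with the highest vector levels and for 3 members described later that were higher in KLF2 tumours. Each runs from 250 bases before to 50 bases after the transcription start, 5′ to 3′ on the gene's own strand, taken from RefSeq on GRCm38.p6. Capitals mark the matches to the motifs TATAAA (the box bound by TBP), CAAAGTCCA (HNF4), CCACACCC (a CACCC box of the KLF family), and a consensus for HNF1 was also searched, each on both strands.
Cyp2e1, chr7:140763569-140763868, plus strand: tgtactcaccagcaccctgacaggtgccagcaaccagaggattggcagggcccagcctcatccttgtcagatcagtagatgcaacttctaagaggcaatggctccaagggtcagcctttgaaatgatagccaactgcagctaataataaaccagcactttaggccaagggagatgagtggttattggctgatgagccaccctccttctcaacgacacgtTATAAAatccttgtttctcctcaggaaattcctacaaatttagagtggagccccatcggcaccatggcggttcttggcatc
Cyp3a11, chr5:145879805-145880104, minus strand: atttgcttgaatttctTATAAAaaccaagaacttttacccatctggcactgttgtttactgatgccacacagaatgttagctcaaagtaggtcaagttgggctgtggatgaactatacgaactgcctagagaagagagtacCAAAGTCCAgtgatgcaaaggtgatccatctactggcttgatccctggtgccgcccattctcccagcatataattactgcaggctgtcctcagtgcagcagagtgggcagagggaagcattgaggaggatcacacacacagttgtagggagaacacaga
Cyp4f39, chr17:32452473-32452772, plus strand: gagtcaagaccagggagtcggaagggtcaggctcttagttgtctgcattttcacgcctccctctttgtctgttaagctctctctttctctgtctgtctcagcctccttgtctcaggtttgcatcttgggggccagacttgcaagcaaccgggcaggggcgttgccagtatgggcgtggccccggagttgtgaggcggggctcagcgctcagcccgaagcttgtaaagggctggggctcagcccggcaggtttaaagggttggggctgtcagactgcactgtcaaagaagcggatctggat
Cyp4b1, chr4:115647672-115647971, minus strand: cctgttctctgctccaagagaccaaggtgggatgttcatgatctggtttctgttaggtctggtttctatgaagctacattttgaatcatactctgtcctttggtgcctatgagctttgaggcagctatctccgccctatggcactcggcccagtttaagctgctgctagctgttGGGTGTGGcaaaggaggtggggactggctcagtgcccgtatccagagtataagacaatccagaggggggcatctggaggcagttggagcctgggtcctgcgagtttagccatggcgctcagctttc
Cyp1b1, chr17:79715012-79715311, minus strand: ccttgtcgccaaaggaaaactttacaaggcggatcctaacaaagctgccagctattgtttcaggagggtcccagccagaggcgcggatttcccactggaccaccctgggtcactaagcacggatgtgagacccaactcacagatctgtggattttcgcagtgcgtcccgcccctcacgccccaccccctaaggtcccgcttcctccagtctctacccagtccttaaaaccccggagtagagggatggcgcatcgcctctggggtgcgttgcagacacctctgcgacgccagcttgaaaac

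The Cyp2e1 window holds a TATAAA just before its start, the Cyp3a11 window holds CAAAGTCCA and a distal TATAAA, and the Cyp4b1 window holds the CACCC box on the opposite strand. None of the 4 motifs, as spelled for the search, was found in the Cyp4f39 and Cyp1b1 windows. Other spellings of a KLF site were not searched, so these windows cannot be said to lack one. RefSeq promoters were matched for 74 members, with 84 promoters in all. TATAAA was in 33 of the 84 member promoters (39.3%), against 13.6% of all 32851 promoters, and CAAAGTCCA was in 10 (11.9%), against 0.475%. The CACCC box was in 2 member promoters (2.38%), against 3.56% of all, and the HNF1 consensus was in 3 (3.57%), against 0.399%. These counts describe letters in a 300-base window. Many members are recent duplicates that share promoter sequence. No promoter entry was matched for Cyp7a1, Cyp7b1, Cyp4a14, Cyp2u1, Cyp4f17, Cyp2d22 and Cyp39a1.

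P450 transcripts were spread unequally over the cell classes, and the class with the highest level was the hepatocyte-lineage-like cluster in every library. There the summed P450 level was 795.6 CPM in KLF2 replicate 1 (exact Poisson 95% interval 605.7 to 1026) and 534.2 CPM in KLF2 replicate 2 (472.2 to 602.2), against 666.8 CPM in vector replicate 2 (638.6 to 695.9). The vector value lies between the KLF2 values. These intervals, like all those below, cover counting error only. The class held 20 and 59 cells in KLF2 replicates 1 and 2, against 616 cells in vector replicate 2. The sums rest on 59 and 268 P450 UMIs in KLF2, against 2107 in vector. Single cells weigh heavily in the KLF2 sums. The cell with the most drug P450 UMIs held 16 and 68 of them in KLF2 replicates 1 and 2, against 79 in vector.

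The rest of the tumour/parenchymal compartment (all cells outside the immune, endothelial-like and mesenchymal-like classes with low Ptprc) consisted almost wholly of KLF2 cells. Unnamed tumour clusters held 4970 and 7488 KLF2 cells, against 3 vector cells, and their P450 sum was 113.8 and 103.1 CPM in KLF2. Cholangiocyte-like clusters held 217 and 792 KLF2 cells, against 0 vector cells, with 172.8 and 136.6 CPM in KLF2. The 13 hepatocyte-lineage markers summed to 73.07 and 90.72 CPM in the KLF2 compartment, against 11814 CPM in the vector compartment. The cholangiocyte markers summed to 667 and 1187 CPM in KLF2, against 111.1 CPM in vector. A comparison over the whole compartment therefore sets mostly non-hepatocyte tumour cells of KLF2 mice against hepatocyte-lineage-like cells of the vector mouse.

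**Figure D1:**
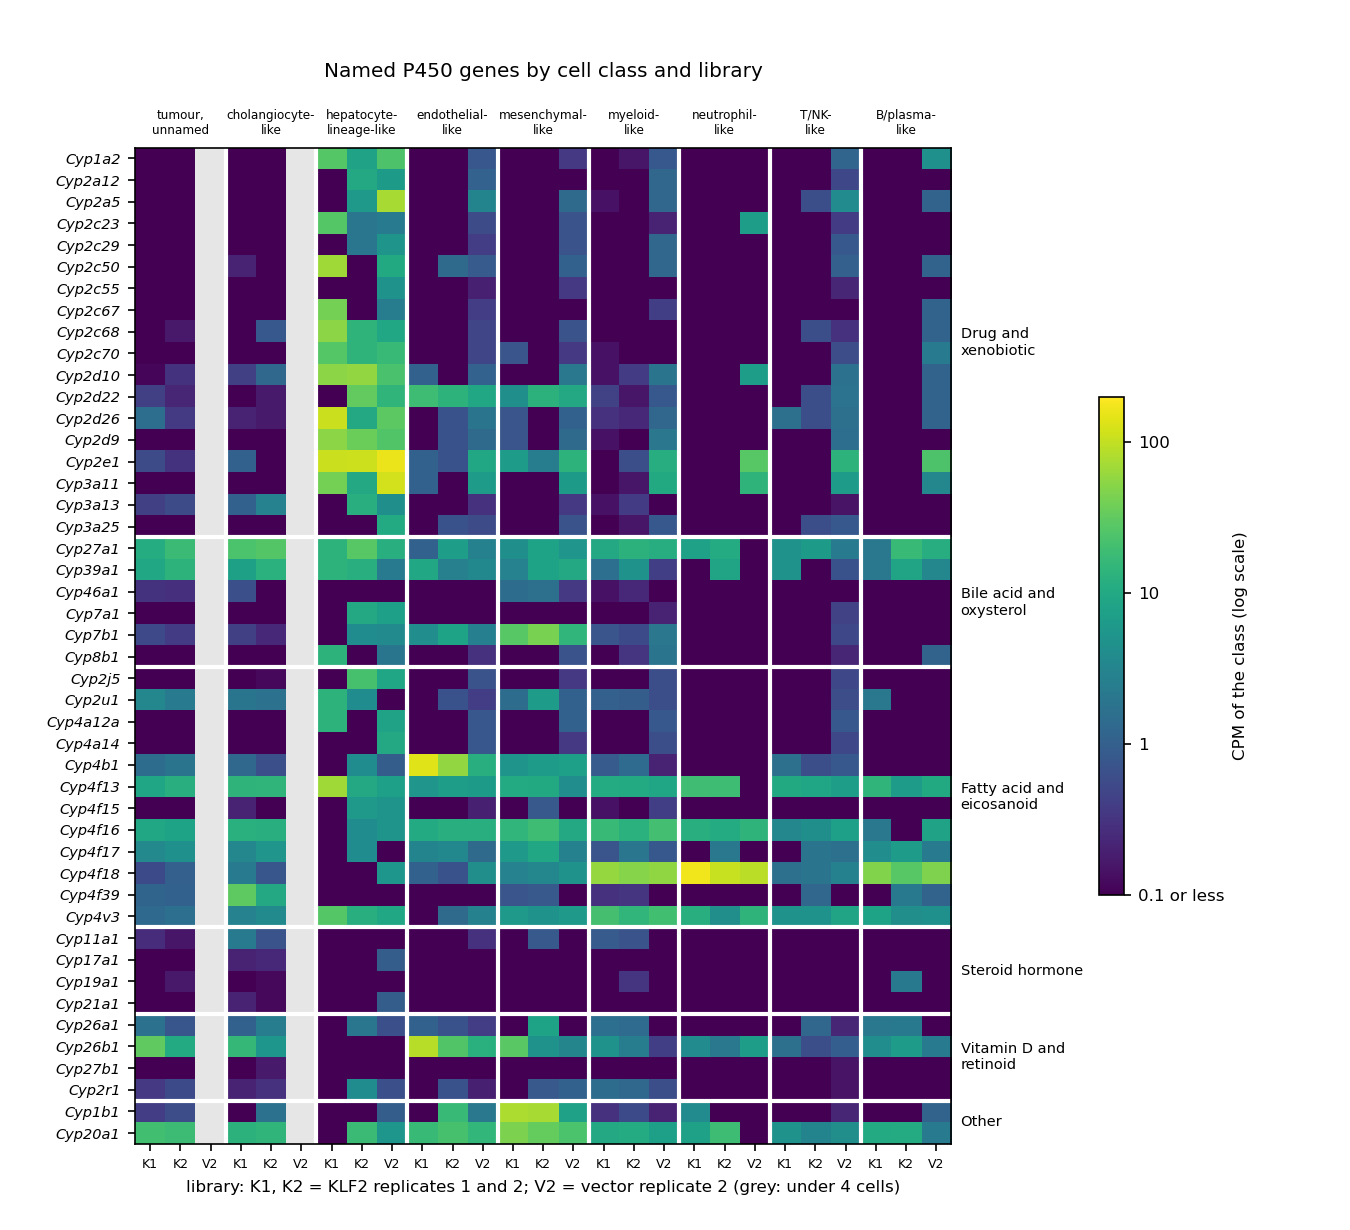
CPM of the named P450 genes (rows, grouped by role) in each cell class for KLF2 replicates 1 and 2 (K1, K2) and vector replicate 2 (V2), on a log colour scale cut at 0.1; grey columns are classes with under 4 cells of that library. Most drug and xenobiotic members are brightest in hepatocyte-lineage-like cells and faint or dark in the other KLF2 classes, with exceptions such as Cyp2d22, at 18.78 and 13.71 CPM in KLF2 endothelial-like cells, against 9.373 CPM in vector.

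In the tumour/parenchymal compartment, 26 of the 51 members that passed the low-count filter were lower in KLF2 tumours, 3 were higher and 22 did not pass the test. Over all 20440 genes tested in the compartment, 10.3% were called lower and 13.1% higher (23.4% in either direction). Some members passed the filter only through the group where they are high. Cyp4a14, without a KLF2 UMI, passed through vector, and the 3 higher members, without a vector UMI, passed through KLF2. The direction of such calls was tied to the group that let the gene pass. The median log2 fold change, KLF2 over vector, was -3.28 over the tested members and 0.67 over all tested genes, so changes in the compartment are read relative to that shift (0.40 with DESeq2 scaling). Calls are adjusted p at 0.05 from the edgeR quasi-likelihood test on UMIs summed per library, with Benjamini-Hochberg adjustment over all genes tested in the class. The spread between samples came from the 2 KLF2 libraries, and the single vector library was assumed to vary as they do.

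The drug and xenobiotic families fell most. Of their 22 tested members 18 were lower in KLF2, with log2 fold changes between -12.37 and -3.28, and none was higher. Their summed level was 8.215 and 6.039 CPM in the KLF2 compartment, against 552 CPM in the vector compartment. Fewer hepatocyte-lineage cells and less RNA per cell cannot be told apart in these sums, and the cell-by-class values below separate them in part.

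Cyp2e1, which oxidises ethanol and paracetamol, measured 0.6964 and 0.7934 CPM in KLF2 replicates 1 and 2, against 158.6 CPM in vector replicate 2. Both KLF2 libraries lie far below the vector library, on 59 and 85 UMIs in KLF2, against 504 in vector. UMIs count molecules and are not divided by gene length. The level was 211-fold lower in KLF2 (95% counting interval 175 to 256), and the log2 fold change was -8.43 ± 0.26 (SE), with an edgeR quasi-likelihood adjusted p of 0.00303. Cyp2e1 lies at chr7:140763739-140774987 on the plus strand (GRCm38, GENCODE M21).

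Cyp3a11, the principal hepatic Cyp3a enzyme of the mouse, measured 0.1062 and 0.1213 CPM in KLF2, against 118.3 CPM in vector. The log2 fold change was -10.69 ± 0.28 (SE), with an edgeR quasi-likelihood adjusted p of 0.00303. Cyp2a5, the coumarin 7-hydroxylase, had the deepest fall among members with UMIs in both groups. Its KLF2 compartments held 0.0118 and 0.028 CPM, against 73.95 CPM in vector. Cyp1a2, which oxidises caffeine and arylamines, measured 0.0236 and 0.0373 CPM in KLF2, against 23.6 CPM in vector, with a log2 fold change of -10.18 ± 0.42 (SE). In none of these genes did the libraries of the groups come near each other.

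The Cyp2d cluster, the mouse counterpart of the human drug-metabolising CYP2D6 locus, fell less steeply than Cyp3a11 and Cyp2a5 in the fitted values. Cyp2d26 measured 1.593 and 0.3827 CPM in KLF2, against 28.95 CPM in vector (log2 -5.58), and Cyp2d10 measured 0.177 and 0.728 CPM in KLF2, against 22.34 CPM in vector (log2 -6.30). Cyp2d9 stood at 0.0708 and 0.2053 CPM in KLF2, against 25.49 CPM in vector (log2 -8.17), and Cyp2d22 at 0.4013 and 0.364 CPM in KLF2, against 14.16 CPM in vector (log2 -5.90). All 4 were called, and the KLF2 replicates differed from each other in Cyp2d26 and Cyp2d10 by more than in Cyp2d22.

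Within the Cyp2c cluster, Cyp2c70, which makes the muricholic acids typical of mouse bile, measured 0.0472 and 0.1027 CPM in KLF2, against 17.31 CPM in vector (log2 -8.48). Cyp2c50 measured 0.0944 and 0.028 CPM in KLF2, against 10.07 CPM in vector, and Cyp2c68 measured 0.0826 and 0.336 CPM in KLF2, against 9.44 CPM in vector. Cyp2c29, Cyp2c55, Cyp2c67 and Cyp2c23 had lower vector levels, of 5.035, 4.72, 2.517 and 2.203 CPM, and none of their KLF2 values exceeded 0.084 CPM. All 7 were called lower, with log2 fold changes from -8.48 to -5.69. Cyp2a12 (0.0236 and 0.0747 CPM in KLF2, against 6.294 CPM in vector) and Cyp3a25 (0.0354 and 0.0653 CPM in KLF2, against 10.38 CPM in vector) were also lower. Cyp3a13, a Cyp3a member expressed in intestine as well as liver, had the smallest called fall among drug genes, with 0.4603 and 1.008 CPM in KLF2, against 4.406 CPM in vector (log2 -3.28 ± 0.69 SE, edgeR quasi-likelihood adjusted p = 0.0368).

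The bile acid and oxysterol genes divided by enzyme rather than moving together. Of 5 tested members 2 were lower, Cyp7a1 and Cyp7b1, and none was higher. Their summed level was 22.21 and 33.16 CPM in KLF2, against 27.38 CPM in vector, which lies between the KLF2 values. Cyp7a1, the rate-limiting enzyme of the classic pathway (chr4:6265612-6275633), had 0 and 6 UMIs in KLF2, against 23 in vector, or 0 and 0.056 CPM against 7.238 CPM. The log2 fold change was -8.52 ± 1.20 (SE) with an edgeR quasi-likelihood adjusted p of 0.0153, and the level was 231-fold lower in KLF2 (counting interval 91.6 to 695).

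Cyp7b1, the oxysterol 7α-hydroxylase of the alternative pathway, measured 0.5311 and 0.3827 CPM in KLF2, against 3.776 CPM in vector (log2 -3.74 ± 0.57 SE, edgeR quasi-likelihood adjusted p = 0.0178). Cyp8b1, the 12α-hydroxylase needed for cholic acid, did not pass the count filter, with 1 and 3 UMIs in KLF2, against 6 in vector. Cyp27a1, the mitochondrial sterol 27-hydroxylase, did not pass the test. It measured 11.83 and 19.04 CPM in KLF2, against 12.27 CPM in vector, and the groups overlap (log2 -0.37 ± 0.41 SE, edgeR quasi-likelihood adjusted p = 0.547). Cyp39a1, which 7α-hydroxylates 24-hydroxycholesterol, measured 9.525 and 13.41 CPM in KLF2, against 2.203 CPM in vector. Both KLF2 values lie above the vector value, and the edgeR quasi-likelihood adjusted p of 0.0737 missed the threshold (log2 1.68 ± 0.49 SE). Cyp46a1, the cholesterol 24-hydroxylase best known from neurons, was scarce at 0.3187 and 0.2427 CPM in KLF2, against 0 UMIs in vector. Both KLF2 values lie under the level of 3 UMIs in the shallower vector compartment, so no difference can be read from them.

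Fatty acid and eicosanoid members moved in both directions, with 6 of 14 tested lower and 3 higher. Cyp4a14, a fatty acid ω-hydroxylase controlled by PPARα, had no UMI in either KLF2 compartment, against 31 UMIs (9.755 CPM) in vector, which makes it at least 623.9-fold lower with a floor of 3 counts over the KLF2 group. Cyp4a12a, the male-predominant 20-HETE synthase, measured 0.0236 and 0.0093 CPM in KLF2, against 7.867 CPM in vector (log2 -9.49). The epoxygenase Cyp2j5 and the leukotriene hydroxylase Cyp4f15 were lower as well, at log2 -7.30 and -7.00. Cyp4v3, the counterpart of human CYP4V2, and Cyp4f18, a leukotriene B4 oxidase of myeloid cells, fell by less. Cyp4v3 measured 1.452 and 2.007 CPM in KLF2, against 9.126 CPM in vector (log2 -3.10), and Cyp4f18 measured 0.6492 and 0.9707 CPM in KLF2, against 5.35 CPM in vector (log2 -3.42).

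The 3 members called higher, Cyp4f17, Cyp2u1 and Cyp4f39, had no UMI in the 619 vector cells of the compartment. Cyp4f17 measured 3.541 and 4.648 CPM in KLF2, at least 4.406-fold higher than the vector floor of 3 counts. Cyp2u1, a fatty acid hydroxylase, measured 3.34 and 2.212 CPM in KLF2 (at least 2.871-fold higher), and Cyp4f39, which ω-hydroxylates the very long fatty acids of skin barrier lipids, measured 2.785 and 2.473 CPM (at least 2.766-fold higher). Their edgeR quasi-likelihood adjusted p-values were 0.0286, 0.049 and 0.0377. With DESeq2 all 3 missed the threshold, with adjusted p of 0.0538 for Cyp4f17, 0.104 for Cyp2u1 and 0.111 for Cyp4f39. Each also missed it under at least 1 other cell filter. Cyp4f13 (9.289 and 12.25 CPM in KLF2, against 7.238 CPM in vector) and Cyp4f16 (9.43 and 8.848 CPM in KLF2, against 5.035 CPM in vector) were not called.

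Among the vitamin D and retinoid members none of the 3 tested was called. Cyp26b1, which clears retinoic acid (chr6:84571414-84593908), measured 30.17 and 9.605 CPM in KLF2, against 0 UMIs in vector, and was at least 19.79-fold higher than the vector floor. Its edgeR quasi-likelihood adjusted p was 0.058, just above the threshold, while DESeq2, the minimum of 500 genes per cell and the removal of the 5% highest doublet scores each called it higher. Cyp26a1 measured 1.723 and 1.045 CPM in KLF2, against 0.6294 CPM in vector. Cyp2r1, a vitamin D 25-hydroxylase, stood at 0.3423 and 0.532 CPM in KLF2, against 0.6294 CPM in vector, and Cyp27b1, the 1α-hydroxylase, at 7 and 8 UMIs in KLF2, against 0 in vector. As CPM the Cyp27b1 levels in KLF2 lie under the vector floor of 3 counts, so no difference can be read from them.

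Steroid hormone members were scarce in all 3 libraries. Cyp11a1, the side-chain cleavage enzyme, measured 0.3777 and 0.2427 CPM in KLF2, against 0 UMIs in vector, and aromatase, Cyp19a1, 0.0944 and 0.1587 CPM in KLF2, against 0 UMIs in vector. All these KLF2 values lie under the vector floor of 3 counts, so no difference can be read from the vector zeros. Cyp17a1 had 3 and 7 UMIs in KLF2, against 3 in vector, and Cyp21a1 had 2 and 10 in KLF2, against 3 in vector. The KLF2 compartments hold far more UMIs in all. As CPM both genes therefore lay lower in KLF2, with counting intervals that do not meet that of vector. None of the 3 steroid members tested was called. Cyp20a1, an orphan member with no assigned role, measured 19.89 and 17.76 CPM in KLF2, against 5.35 CPM in vector, both KLF2 values above the vector value, with an edgeR quasi-likelihood adjusted p of 0.0746 (log2 1.12 ± 0.33 SE).

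The genes that work with the hepatic P450s were read from lists chosen by function. Their counts of calls are read against all 20440 genes tested in the compartment, of which 10.3% were lower and 13.1% higher. Of 17 electron-donor and haem genes 7 were lower in the KLF2 compartment and none higher, with a median log2 of -0.78, against 0.67 over all genes. Alad, the second step of haem synthesis, measured 34.18 and 28.81 CPM in KLF2, against 159.2 CPM in vector, and Alas1, the rate-limiting step in liver, 12.44 and 11.72 CPM in KLF2, against 38.08 CPM in vector. Cyb5a, the electron carrier cytochrome b5, was lower at log2 -2.42, and Cpox, another enzyme of haem synthesis, was lower too.

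Of 22 transcriptional regulators 12 were lower and 3 higher, where 10.3% of all tested genes were lower and 13.1% higher. Nr1i2, the xenobiotic receptor PXR that controls Cyp3a11, measured 0.0708 and 0.1307 CPM in KLF2, against 16.05 CPM in vector (log2 -7.96). Hnf4a measured 0.3305 and 1.428 CPM in KLF2, against 47.83 CPM in vector (log2 -6.44). The bile acid regulator Nr5a2 and the oxysterol receptor Nr1h3 were lower at log2 -6.26 and -5.62. The 3 higher regulators were Foxa2, Rora and Ahr, the aryl hydrocarbon receptor, a share near that of all tested genes.

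Conjugation genes fell with the P450s, with 24 of 31 lower and 1 higher (median log2 -5.11), as did 21 of 24 other oxidases and reductases (median -5.25). The bile acid genes outside the P450 family were lower in 19 of 23 cases (median -5.48), among them the conjugating enzymes Slc27a5 and Baat at log2 -7.93 and -7.76. Cholesterol synthesis genes were lower in 6 of 19 cases. Retinoid and vitamin D genes outside the family went both ways, with 7 of 19 higher and 4 lower (median 1.99). Stra6, the receptor that takes up retinol, measured 178.1 and 204.1 CPM in KLF2, against 4.72 CPM in vector, and Rdh10, which oxidises retinol to retinal, measured 87.71 and 65.01 CPM in KLF2, against 3.462 CPM in vector. Rbp4, the hepatocyte carrier of retinol, was lower at log2 -6.16. Of 14 pericentral genes 3 were higher and 5 lower, and of 13 tested periportal genes 7 were lower. Over all genes tested in the compartment 13.1% were higher and 10.3% lower. Lgr5, a pericentral and progenitor gene, measured 56.05 and 49.08 CPM in KLF2, against 0.3147 CPM in vector.

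Within hepatocyte-lineage-like cells alone, 2 of 16 tested members were lower, Cyp3a11 and Cyp2a5, and none was higher. Over all 7238 genes tested there 2.09% were called lower and 1.91% higher (3.99% in either direction), and the median log2 fold change was -0.26 over the members and 0.01 over all genes. The fit rests on 20 and 59 KLF2 cells, fewer than the 50 per library asked of the other classes in KLF2 replicate 1. All cells of the class belonged to 1 cluster. Its hepatocyte-lineage markers summed to 19257 and 8821 CPM in KLF2, against 11877 CPM in vector, so the vector value lies between the KLF2 values.

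Cyp2a5 had 0 and 3 UMIs in the KLF2 hepatocyte-lineage-like cells, against 235 in vector, or 0 and 5.98 CPM against 74.37 CPM. It was 14.3-fold lower in KLF2 (counting interval 4.82 to 69.7), with a log2 fold change of -4.85 ± 1.06 (SE) and an edgeR quasi-likelihood adjusted p of 0.000382. Cyp3a11 had 3 and 5 UMIs in KLF2, against 376 in vector, or 40.46 and 9.967 CPM against 119 CPM. It was 8.56-fold lower (4.3 to 20), with a log2 fold change of -3.75 ± 0.97 (SE) and an edgeR quasi-likelihood adjusted p of 0.00555. Both KLF2 libraries lie below the vector library in both genes, the counting intervals of KLF2 replicate 1 and vector meet for Cyp3a11, and DESeq2 called neither (adjusted p = 0.229 for Cyp2a5 and 0.377 for Cyp3a11).

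Cyp2e1 was not called in these cells. It measured 107.9 and 113.6 CPM in KLF2, against 159.5 CPM in vector, with a log2 fold change of -1.53 ± 0.87 (SE) and an edgeR quasi-likelihood adjusted p of 0.472. The KLF2 reads came from few cells, with 4 of 20 and 9 of 59 cells positive in KLF2, against 219 of 616 in vector, before thinning. Thinned to 1000 UMIs per cell, 5% (Wilson interval 0.8881 to 23.61%) and 3.39% (0.9346 to 11.54%) of KLF2 cells held a Cyp2e1 UMI, against 14.17% (11.59 to 17.2%) in vector.

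Other drug P450 genes of hepatocyte-lineage-like cells lay on either side of their vector level, and no difference between genes was tested. Cyp3a25 and Cyp2c55 had no UMI in either KLF2 library, against 10.44 and 4.747 CPM in vector, and Cyp2c29 measured 0 and 1.993 CPM in KLF2, against 5.063 CPM in vector. These 3 genes did not pass the count filter, and 0 UMIs in KLF2 replicate 1 allow up to 49.74 CPM by the exact Poisson interval. Cyp2d10 measured 53.94 and 57.81 CPM in KLF2, against 22.47 CPM in vector, and Cyp2d9 53.94 and 35.88 CPM in KLF2, against 25.63 CPM in vector. Cyp2d26 measured 107.9 and 9.967 CPM in KLF2, against 29.11 CPM in vector, with the vector value between the KLF2 values. These Cyp2d values rest on 4 to 29 UMIs per KLF2 library and none was called. Before thinning, Cyp2d10 was found in 2 of 20 and 6 of 59 KLF2 cells, against 58 of 616 vector cells. Cyp2d9 was found in 3 and 5 KLF2 cells, against 50 vector cells. Cyp1a2 (26.97 and 7.974 CPM in KLF2, against 23.74 CPM in vector) and Cyp2c70 (26.97 and 13.95 CPM in KLF2, against 17.41 CPM in vector) overlapped between the groups.

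At least 1 drug P450 UMI was found in 12 of 20 cells of KLF2 replicate 1 (60%, Wilson interval 38.66 to 78.12%), in 28 of 59 cells of KLF2 replicate 2 (47.46%, 35.27 to 59.96%), and in 394 of 616 cells of vector replicate 2 (63.96%, 60.09 to 67.66%). Cells with UMIs of 3 or more different drug P450 genes made up 10% and 11.86% in KLF2, against 20.13% in vector. Both kinds of share were taken before thinning, so depth enters them. The median cell of the class held 2286 and 4746 UMIs in KLF2, against 3208 in vector. A single cell of KLF2 replicate 2 held 68 drug P450 UMIs, and the vector cell with the most held 79. Among bile acid genes Cyp7a1 measured 0 and 9.967 CPM in KLF2, against 7.279 CPM in vector, and Cyp27a1 13.49 and 27.91 CPM in KLF2, against 12.03 CPM in vector.

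**Figure D2:**
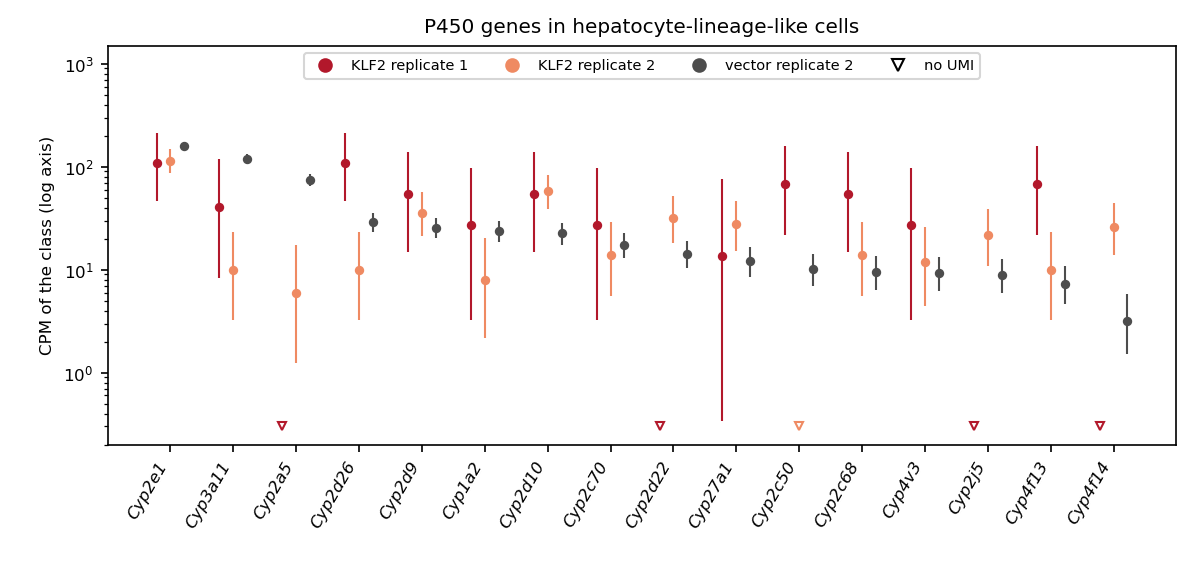
CPM of P450 genes with exact Poisson 95% intervals (log axis) in hepatocyte-lineage-like cells for KLF2 replicates 1 and 2 and vector replicate 2; open triangles mark libraries without a UMI. Cyp2a5 and Cyp3a11 lie lower in both KLF2 libraries, with the Cyp3a11 interval of KLF2 replicate 1 reaching the vector interval. The Cyp2d10 and Cyp2d9 values lie higher in both KLF2 libraries, on few positive KLF2 cells and without a call.

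Hepatic P450 transcripts were also found in vector cells that are not hepatocytes, at levels far under those of hepatocyte-lineage-like cells. Cyp2e1 measured 0 and 0 CPM in KLF2 T/NK-like cells, against 13.76 CPM (185 UMIs) in vector T/NK-like cells, and it was at least 10.13-fold lower in KLF2 (edgeR quasi-likelihood adjusted p = 0.0151). In myeloid-like cells it measured 0 and 0.6267 CPM in KLF2, against 11.27 CPM in vector (log2 -5.15 ± 0.86 SE, edgeR quasi-likelihood adjusted p = 0.00995). In endothelial-like cells it measured 1.044 and 0.6856 CPM in KLF2, against 9.669 CPM in vector, and in mesenchymal-like cells 6.622 and 2.496 CPM in KLF2, against 13.64 CPM in vector. The vector value exceeds both KLF2 values in each class. The T/NK-like cells lay in cluster 17 in KLF2, against clusters 2 and 9 in vector, almost without exception.

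The same vector cells carried other hepatocyte RNA. Alb stood at 0 to 9.392 CPM in the KLF2 immune and stromal classes, against 56.29 CPM or more in the vector ones. The 13 hepatocyte-lineage markers summed to 41.7 and 36.07 CPM in KLF2 T/NK-like cells, against 485.3 CPM in vector T/NK-like cells, with 6 and 4 of them at 0 in KLF2 and none in vector. Within the vector library Cyp2e1 was not carried in a fixed proportion to Fabp1, a hepatocyte gene. It had 34.07 UMIs per 1000 Fabp1 UMIs in hepatocyte-lineage-like cells (31.16 to 37.18), 65.73 in endothelial-like cells (53.36 to 80.1) and 100.4 in T/NK-like cells (86.48 to 116). The part of free hepatocyte RNA in these values was not tested.

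In the tests outside the tumour compartment Cyp2e1 was called lower in T/NK-like, myeloid-like, endothelial-like and mesenchymal-like cells, and Cyp3a11 in myeloid-like cells. In each class the tested member count is read against all genes. In T/NK-like cells 1 of 6 tested members was lower, where 3.84% of all tested genes were lower, 6.52% higher and 10.4% called in either direction. That member, Cyp2e1, had no KLF2 UMI in these cells and passed the filter through the vector library alone. In myeloid-like cells 2 of 16 were lower, where 7.54% of all were lower, 12.7% higher and 20.3% called. In endothelial-like cells 1 of 12 was lower, where 6.94% of all were lower and 14.6% called, and in mesenchymal-like cells 1 of 12, where 8.85% of all were lower and 19.9% called. With DESeq2 the Cyp2e1 calls in myeloid-like, endothelial-like and mesenchymal-like cells were lost, at adjusted p of 0.338, 0.177 and 0.535. Cyp3a11 measured 0 and 0.1567 CPM in KLF2 myeloid-like cells, against 10.25 CPM in vector (log2 -6.80 ± 0.81 SE, edgeR quasi-likelihood adjusted p = 0.00361). An unnamed vector cluster of 1084 cells outside the compartment, led by mitochondrial genes and Igkc, held 16.52 CPM of Cyp2e1, and the vector barcodes removed by the cell filters held 25.57 CPM.

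**Figure D3:**
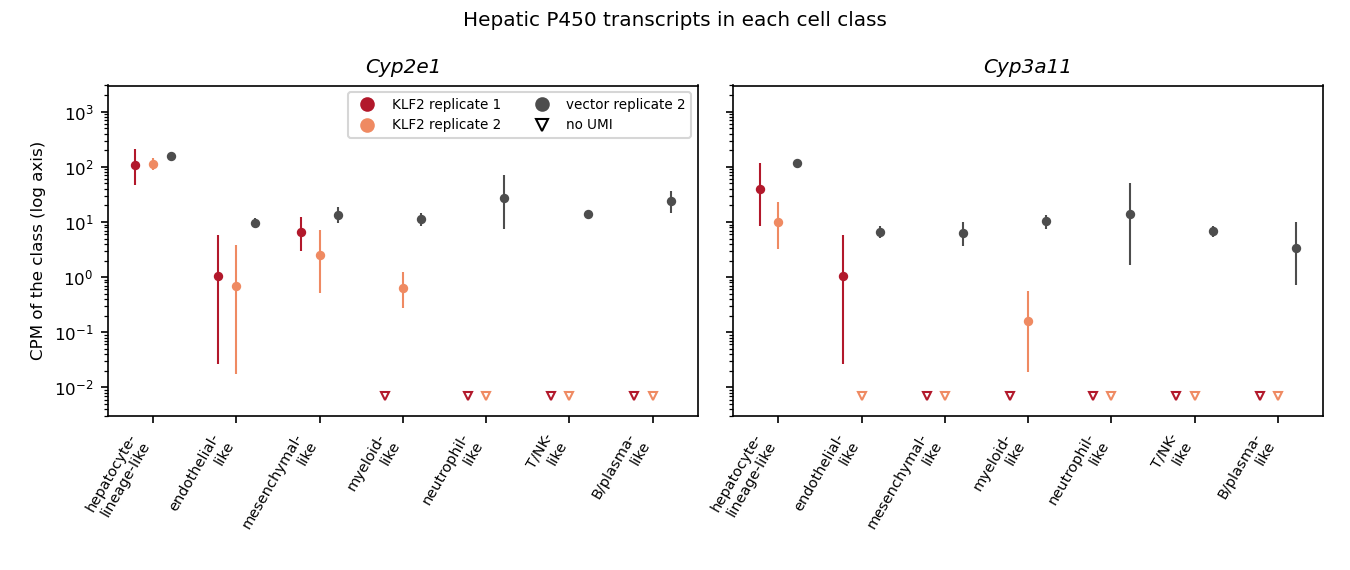
CPM of Cyp2e1 (left) and Cyp3a11 (right) with exact Poisson 95% intervals (log axis) in each cell class for KLF2 replicates 1 and 2 and vector replicate 2; open triangles mark libraries without a UMI. Vector cells of every class carry Cyp2e1, from 9.669 CPM in endothelial-like cells upward, while KLF2 cells outside the hepatocyte-lineage-like class lie lower or without a UMI.

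In mesenchymal-like cells Cyp1b1 was higher in KLF2 tumours. Cyp1b1, which oxidises oestrogens and polycyclic aromatic hydrocarbons (chr17:79701537-79715061, minus strand), measured 77.99 and 74.06 CPM in KLF2, against 7.692 CPM in vector, on 106 and 89 UMIs against 22. The KLF2 replicates lie close together and far above the vector library. The ratio was 9.9 (counting interval 6.36 to 16.2) and the fitted log2 fold change 2.67 ± 0.56 (SE), with an edgeR quasi-likelihood adjusted p of 3.98e-05. It was the only one of 12 tested members called higher in this class, where 11.1% of 11020 tested genes were called higher, and the members' median log2 was 0.17, against 0.05 over all genes.

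Thinned to 1000 UMIs, 9.195% and 5.714% of KLF2 mesenchymal-like cells held a Cyp1b1 UMI, against 0.2841% in vector, and 0% and 0% of KLF2 T/NK-like cells, against 0.02962% in vector. All mesenchymal-like cells belonged to 1 cluster, with 87 and 175 KLF2 cells, against 356 vector cells. The mesenchymal markers summed to 22956 and 16489 CPM in KLF2, against 17248 CPM in vector. Elsewhere Cyp1b1 was low, with 0 and 17.14 CPM in KLF2 endothelial-like cells, against 2.072 CPM in vector. Cyp7b1 in mesenchymal-like cells measured 27.96 and 43.27 CPM in KLF2, against 15.03 CPM in vector, without a call (edgeR quasi-likelihood adjusted p = 0.437), and Cyp20a1 44.14 and 33.28 CPM in KLF2, against 23.08 CPM in vector.

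In endothelial-like cells Cyp4b1 was higher in KLF2 tumours, the only one of 12 tested members called higher, where 7.66% of 10641 tested genes were. Cyp4b1, a lung-type enzyme that activates plant toxins (chr4:115624725-115647723, minus strand), measured 136.7 and 58.27 CPM in KLF2, against 12.04 CPM in vector, on 131 and 85 UMIs against 122. Both KLF2 values lie above the vector value, and the KLF2 replicates differ from each other by more than for Cyp1b1. The log2 fold change was 2.57 ± 0.47 (SE), with an edgeR quasi-likelihood adjusted p of 0.0204.

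The endothelial-like class was made of different clusters in the groups. In cluster 5 lay 7 of 98 and 22 of 248 KLF2 cells, against 1371 of 1812 vector cells, while cluster 16, led by genes such as the sinusoidal markers Stab2 and Clec4g, held 56 and 136 KLF2 cells, against 345 vector cells. Within cluster 16 alone Cyp4b1 measured 331.6 and 110.2 CPM in KLF2, against 27.75 CPM in vector. In clusters 16 and 25 together, the endothelial-like clusters with at least 30 cells in each library (a limit chosen after seeing the data, which leaves out cluster 5 and so most vector cells), it measured 143.3 and 60.97 CPM in KLF2, against 19.48 CPM in vector (log2 2.03, edgeR quasi-likelihood adjusted p = 3.86e-07). Markers of sinusoidal endothelium moved the same way within these clusters, with Stab2 at 522.9 and 347.9 CPM in KLF2, against 93.19 CPM in vector, Clec4g at 565.6 and 372.3 CPM in KLF2, against 68.75 CPM in vector, and Lyve1 at 323.8 and 227.4 CPM in KLF2, against 44.3 CPM in vector. The capillary gene Fabp4 measured 3033 and 2334 CPM in KLF2, against 2395 CPM in vector. The restricted comparison is therefore not one of like cells, and the part of cell makeup in the Cyp4b1 difference was not tested. Thinned, 7.143% and 5.645% of KLF2 endothelial-like cells held a Cyp4b1 UMI, against 1.483% in vector, and 0% and 0% of KLF2 T/NK-like cells, against 0.02962% in vector. The 10 endothelial markers summed to 6827 and 4529 CPM in KLF2, against 3133 CPM in vector, and their part in the result was not tested.

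Cyp26b1 in endothelial-like cells measured 87.66 and 25.37 CPM in KLF2, against 12.53 CPM in vector, and was not called (log2 1.69 ± 0.60 SE, edgeR quasi-likelihood adjusted p = 0.108). In clusters 16 and 25 the order of the groups was not kept, with 85.33 and 24.39 CPM in KLF2, against 37.05 CPM in vector. Over the whole class it was called higher under 7 of the alternatives, among them a maximum of 10% mitochondrial UMIs and resolution 2.0. In mesenchymal-like cells Cyp26b1 measured 28.69 and 4.993 CPM in KLF2, against 3.147 CPM in vector (edgeR quasi-likelihood adjusted p = 0.0665). KLF2 replicate 1 was the higher KLF2 library in the compartment as well as in both stromal classes.

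**Figure D4:**
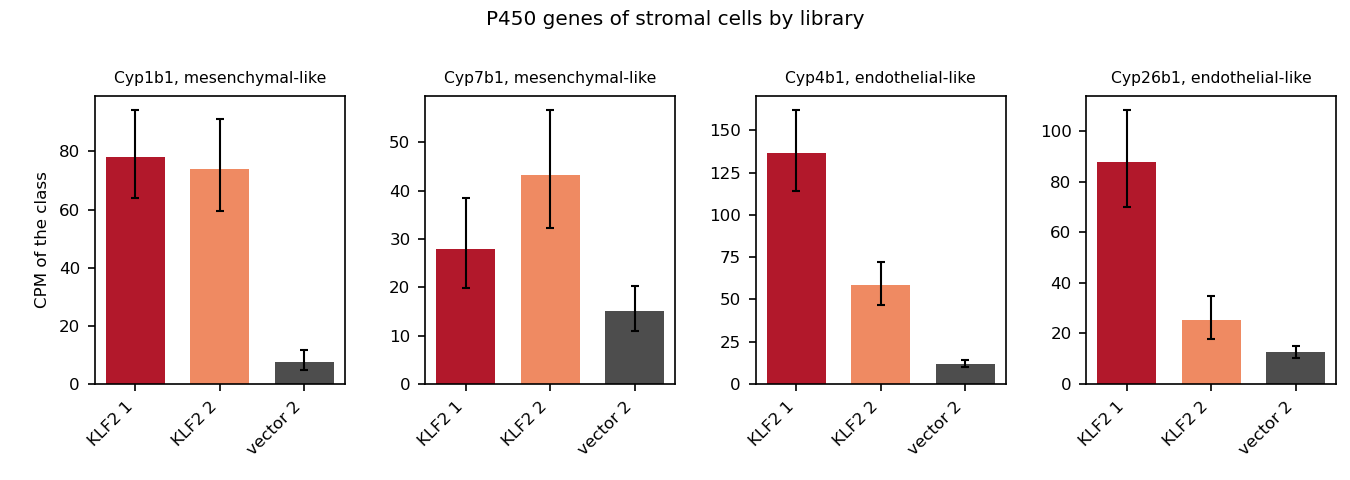
CPM with exact Poisson 95% intervals of P450 genes in mesenchymal-like and endothelial-like cells for KLF2 replicates 1 and 2 and vector replicate 2. Cyp1b1 in mesenchymal-like cells (77.99 and 74.06 CPM in KLF2, against 7.692 CPM in vector) and Cyp4b1 in endothelial-like cells (136.7 and 58.27 CPM in KLF2, against 12.04 CPM in vector) stand apart between the groups.

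In neutrophil-like, myeloid-like and B/plasma-like cells the member with the highest mean level was Cyp4f18, the enzyme that oxidises leukotriene B4 in mouse neutrophils (chr8:71988482-72009626, minus strand, overlapping Zfp961). It measured 169.7 and 104.2 CPM in KLF2 neutrophil-like cells, against 89.99 CPM in vector, and 60.7 and 50.61 CPM in KLF2 myeloid-like cells, against 56.36 CPM in vector. In B/plasma-like cells it measured 47.92 and 27.77 CPM in KLF2, against 46.64 CPM in vector. In T/NK-like cells it was scarcer, at 1.668 and 1.865 CPM in KLF2, against 2.827 CPM in vector, and below Cyp4f13, at 10.01 and 8.706 CPM in KLF2, against 7.142 CPM in vector.

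Cyp4f18 was called in none of these classes, with log2 fold changes of 0.14 ± 0.60 (SE) in neutrophil-like, -0.35 ± 0.27 in myeloid-like and -0.54 ± 0.42 in B/plasma-like cells (edgeR quasi-likelihood adjusted p = 0.906, 0.385 and 0.443). Its order over classes, highest in neutrophil-like cells, was the same in each library. The myeloid-like class came from different clusters in the groups, mostly clusters 7, 18, 19 and 24 in KLF2, against cluster 11 in vector.

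The other leading members of myeloid-like cells were not called. There Cyp4v3 measured 21.31 and 14.73 CPM in KLF2, against 20.29 CPM in vector, Cyp4f16 16.76 and 12.85 CPM in KLF2, against 20.49 CPM in vector, and Cyp27a1 9.848 and 13.08 CPM in KLF2, against 11.27 CPM in vector. The vector value lies between the KLF2 values for Cyp4v3 and Cyp27a1. Scarcer members of these cells stood further apart without a call. Cyp26b1 measured 4.997 and 2.428 CPM in KLF2, against 0.4099 CPM in vector (ratio 8.1, counting interval 2.15 to 68.3), and Cyp39a1 1.617 and 4.779 CPM in KLF2, against 0.4099 CPM in vector (ratio 8.98, 2.4 to 75.5), each on 2 vector UMIs. Cyp26a1 measured 1.617 and 1.41 CPM in KLF2, against 0 UMIs in vector. On the other side lay Cyp7b1, at 0.7349 and 0.5484 CPM in KLF2, against 2.049 CPM in vector, and the untested Cyp8b1, at 0 and 0.3133 CPM in KLF2, against 1.845 CPM in vector. The edgeR quasi-likelihood adjusted p-values were 0.0985 for Cyp26b1, 0.145 for Cyp39a1, 0.12 for Cyp26a1 and 0.212 for Cyp7b1. Of 16 tested members in myeloid-like cells 2 were lower and none higher, the hepatic genes Cyp2e1 and Cyp3a11. In neutrophil-like cells 1 member was tested and in B/plasma-like cells 2, and none of these was called by edgeR or DESeq2. Unadjusted p was under 0.05 for 0 of them in neutrophil-like and 1 in B/plasma-like cells. Of all genes tested in neutrophil-like cells 6.3% were higher, 4.89% lower and 11.2% called in either direction, and in B/plasma-like cells 8.04% were higher, 7.38% lower and 15.4% called.

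The P450 genes that KLF2 tumours did express in the compartment were unevenly placed over its clusters. This holds in both KLF2 libraries, though the highest cluster was not always the same. Cyp4f39 was concentrated in cluster 26, a cholangiocyte-like cluster of 55 and 165 KLF2 cells led by Defa21, Defa22, Prr9, Tchh and the hair keratin Krt84. Cyp4f39 measured 130.6 and 60.95 CPM in that cluster, and 57.2% and 56.2% of its compartment UMIs lay there, against 1.21 and 1.11 CPM in the rest of the compartment.

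Cyp26b1 was concentrated in cluster 6, an unnamed cluster of 853 and 399 KLF2 cells led by the bone and matrix genes Ibsp, Serpinf1 and Col1a1. It measured 102.7 and 70.86 CPM there, against 10.2 and 5.02 CPM in the rest of the compartment. The cluster held 73.4% and 51.4% of the compartment's Cyp26b1 UMIs. The mesenchymal markers summed to 1336 and 374 CPM in the KLF2 compartment, against 277.9 CPM in vector. The KLF2 replicate with the higher sum also had the higher Cyp26b1, while the vector compartment held no Cyp26b1 UMI. A link between the marker sum and Cyp26b1 was not tested. Clusters were built from variable genes with the P450 genes left out. The cluster levels are a description and were not tested.

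Cyp27a1 measured 43.65 and 58.78 CPM in cluster 4, a Malat1-led cluster of 370 and 1372 KLF2 cells, against 10.7 and 15 CPM in the compartment outside it. In cluster 20 it measured 25.11 and 69.52 CPM, so the highest cluster was 4 in KLF2 replicate 1 and 20 in KLF2 replicate 2. Cyp39a1 was highest in clusters 20 and 13, at 14.77 and 27.92 CPM and at 15.42 and 24.5 CPM. Cyp2f2, the club-cell enzyme of the airway, measured 30.07 and 1.43 CPM in cluster 10, a cholangiocyte-like cluster led by Ly6d and Krt19, against 2.33 and 0.573 CPM in the rest of the compartment. The cluster held 37.2% and 28.4% of the compartment's Cyp2f2 UMIs, at levels that differ widely between the KLF2 replicates. Cluster 14 held 9.583 and 3.832 CPM of Cyp2f2. In KLF2 replicate 2 cluster 14 therefore lay above cluster 10, as did the hepatocyte-lineage-like cluster 12 (5.98 CPM). Over the whole compartment Cyp2f2 measured 3.553 and 0.6907 CPM in KLF2, against 3.147 CPM in vector, without a call.

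**Figure D5:**
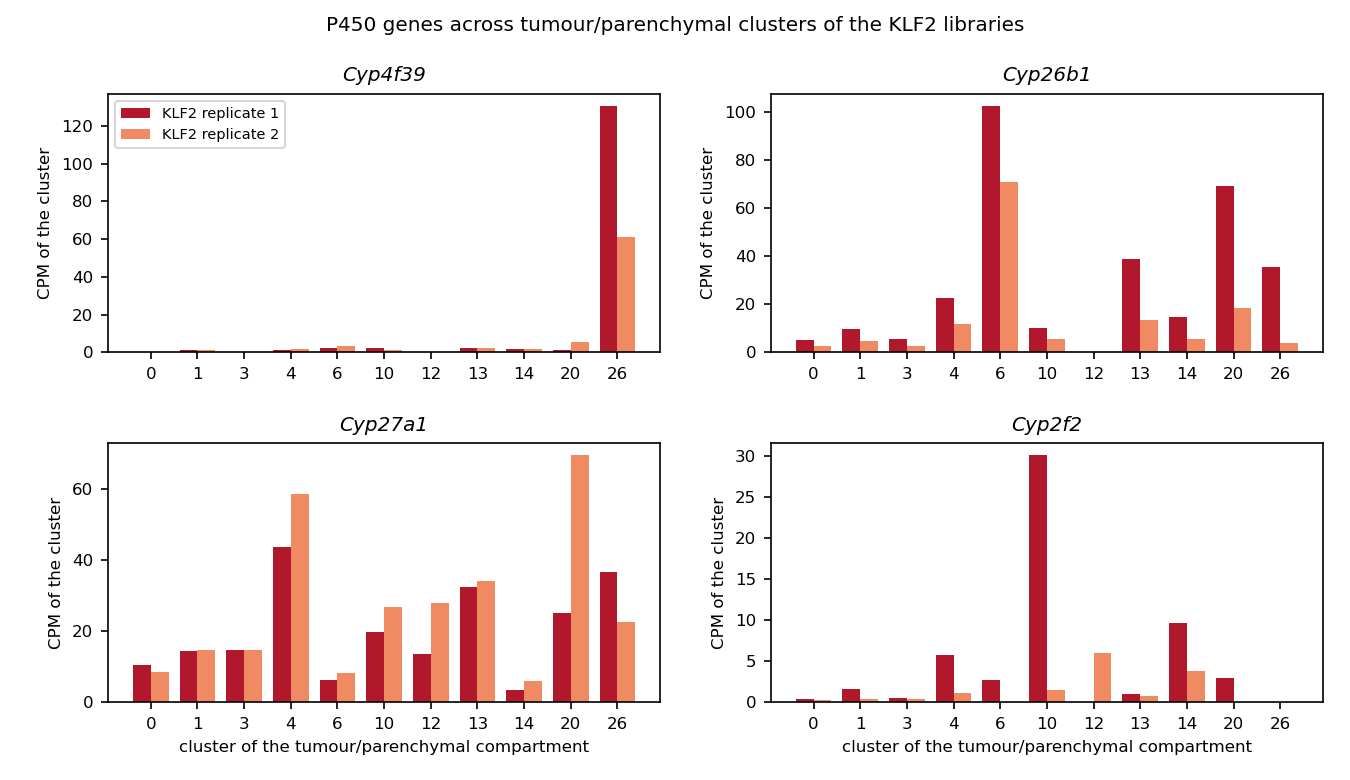
CPM of P450 genes by cluster of the tumour/parenchymal compartment for KLF2 replicates 1 and 2, as bars from 0. Cyp4f39 peaks in cluster 26 and Cyp26b1 in cluster 6 in both KLF2 libraries. Cyp2f2 (30.07 and 1.43 CPM in cluster 10) peaks in cluster 10 in KLF2 replicate 1 only.

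The gene lists, which include vector replicate 1, gave overlapping numbers of members in the groups. In them 80 and 89 members were listed in KLF2 replicates 1 and 2, against 83 and 81 in vector replicates 1 and 2. All genes listed numbered 26089 and 27251 in KLF2, against 24505 and 23421 in vector. In all 4 lists 63 members appeared. Vector replicate 1 listed Cyp3a41b, the only symbol of the 97 in the 4 lists that none of the other libraries held.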

How the data were processed

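The authors deposited raw UMI counts (genes by barcodes, not normalised) in matrices from PISA 1.0, per the file headers, with GRCm38 named in the submitters' processing notes. The sources used here name no aligner or annotation. A gene missing from a library's list was taken as 0. Barcodes under 300 genes or over 25% mitochondrial UMIs were dropped; Scrublet called 0 doublets in each library, too few to have worked. Counts were clustered with scanpy 1.11.5 (2000 variable genes, 30 components, 15 neighbours, Leiden with leidenalg 0.10.2 at resolution 1.0), and clusters were named "-like" from marker lists; rebuilt names may differ from the study's. UMIs were summed per library and class, given as CPM of the class, and tested with edgeR 4.0.16 (quasi-likelihood, TMM, filterByExpr, Benjamini-Hochberg; R 4.3.3), KLF2 over vector, with 1 residual degree of freedom, on classes of at least 50 cells per library, except hepatocyte-lineage-like cells. DESeq2 1.42.0 was an alternative. Folds against 0 UMIs use a floor of 3 counts over the group. Named genes were all called members, the 3 highest members of each class, and bile acid, steroid and retinoid members with at least 10 UMIs. Members, lists and tests were chosen with earlier results of these data known. No column of another sample was used.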

Additional observations from a re-analysis of the deposited data

How the results depend on the processing

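No paired analysis was possible because only replicate number 2 had a matrix in both groups. No result reversed under any alternative that was run. Of the 29 P450 calls in the compartment, DESeq2 made 28 (26 shared), a mitochondrial maximum of 10% left 22, and testing without the low-count filter gave 45. In endothelial-like cells the 2 calls became 1 with DESeq2, 5 without the filter, and 4 with mitochondrial and rRNA-overlapping genes left out or with no mitochondrial maximum. In mesenchymal-like cells the 2 calls became 1 with DESeq2, with a mitochondrial maximum of 10% and with the 5% highest doublet scores removed, and 4 at resolution 2.0. In myeloid-like cells the 2 calls became 1 with DESeq2 and 11 without the filter, and in hepatocyte-lineage-like cells 0 with DESeq2. In T/NK-like cells the 1 call became 2, with Cyp3a11, without the filter, with those genes left out, at a maximum of 10%, with no maximum, at 500 genes per cell, and at resolutions 0.5 and 2.0. In B/plasma-like cells 0 calls became 1, Cyp2e1, without the filter, with those genes left out, at 500 genes per cell and at resolution 2.0. The causes were not tested. With each KLF2 library left out in turn the log2 fold change, which then has no test, ranged from -9.94 to -4.45 for Cyp2a5 and from -4.40 to -2.46 for Cyp3a11 in hepatocyte-lineage-like cells, the smaller change of Cyp2a5 coming without KLF2 replicate 1 (the other rests on 0 KLF2 UMIs) and that of Cyp3a11 without KLF2 replicate 2. It ranged from -2.94 to -1.64 for Cyp2e1 and from 2.72 to 2.73 for Cyp1b1 in mesenchymal-like cells, from 2.01 (without KLF2 replicate 1) to 3.06 (without KLF2 replicate 2) for Cyp4b1 in endothelial-like cells, and from -9.26 to -4.47 for Cyp2e1 in myeloid-like cells. Counts have no such value, since 1 library in each group leaves no residual degree of freedom. Myeloid-like cells at 500 genes per cell and at resolution 0.5, and neutrophil-like cells at 10% mitochondrial UMIs and at 500 genes per cell, could not be fitted. Depth limits members with few UMIs, which the filter removed.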
